A study of Saccharomyces cerevisiae with 12 samples.

Results

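The genes described here encode proteins that build the small, 40S, subunit of the ribosome in *S. cerevisiae*. They were chosen by ORF name as proteins of the small-subunit processome, box C/D snoRNP proteins and further 40S assembly factors. The choice was made with earlier results of these data known. There were 49 members, and all 49 had values, among 5769 genes with values on the arrays.

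The small-subunit processome, also called the 90S pre-ribosome, is a very large particle that forms in the nucleolus on the pre-rRNA while RNA polymerase I is still transcribing it. The UTP-A complex binds first, and UTP-B, the U3 snoRNP, the MPP10 complex and UTP-C follow. RNA helicases, a GTPase and modifying enzymes then remodel the particle so that the 18S rRNA can be cut out and folded. The genes of ribosome assembly in yeast are known as a regulon that follows TOR signaling, and rapamycin inhibits TOR complex 1.

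Cells in mid-log phase in the rich medium YPD were treated for 30 min at 30°C. The WT strain was the haploid laboratory strain BY4741 (*MATa his3Δ1 leu2Δ0 met15Δ0 ura3Δ0*), and the *tup1Δ* strain of the yeast deletion collection has the same background and lacks *TUP1*, which encodes a general co-repressor of transcription. The 4 groups were *tup1Δ* in 100 nM rapamycin (2 arrays), *tup1Δ* in 0.1% DMSO (2 arrays), WT in 100 nM rapamycin (4 arrays) and WT in 0.1% DMSO (4 arrays), with DMSO as the solvent of rapamycin. Each of the 4 WT cultures was divided between the treatments, so WT arrays with the same replicate number share a culture, and *tup1Δ* was grown as 2 cultures of 1 deletion strain. One-color NimbleGen arrays gave 1 value per gene on the log2 scale, which the authors had normalized by Robust Multi-array Average (RMA). RMA brings all arrays to nearly the same distribution, so a shift of all mRNAs together would go unseen. Precision is limited by the number of arrays.

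*TUP1* had a log2 value of 8.09 ± 0.19 in *tup1Δ* in rapamycin, 7.97 ± 0.04 in *tup1Δ* in DMSO, 13.79 ± 0.14 in WT in rapamycin and 13.93 ± 0.08 in WT in DMSO (SD, n = 2, 2, 4 and 4). It was near the bottom of the scale in the strain labelled as its deletion. The deleted gene thus read about 8 on these arrays, where the lowest value of any gene was 7.85. Whether other genes with no transcript would read the same was not tested. Array medians lay between 11.48 and 11.52. The WT arrays in DMSO fell into the pairs of replicates 1 and 2 and of replicates 3 and 4, and values that touch this split are given with the members concerned. The arrays measured RNA of whole cultures, so less of a transcript in every cell and a loss from part of the cells cannot be told apart, nor can less synthesis and faster decay.

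Members fell together in rapamycin in WT. A gene was called at a Benjamini-Hochberg adjusted p under 0.05 from limma over all genes together with a log2 fold change of 1 or more in size. By this rule 46 of the 49 members were lower and 0 were higher, where 7.8% of all genes tested were lower and 5.41% higher. The median log2 fold change of the members was -2.27, or 4.84-fold lower, against a median of 0.06 over all genes, and the members ran from -3.53 for *RRP5* to -0.53 for *ESF1*. With the adjusted p alone, 49 members were lower, where 28.4% of all genes were. For all 49 members, each of the 4 rapamycin values lay below each of the 4 DMSO values, which held for 26.1% of all genes. Of the 100 genes with the largest falls, which are 1.73% of all genes, 24 were members.

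**Figure D1:**
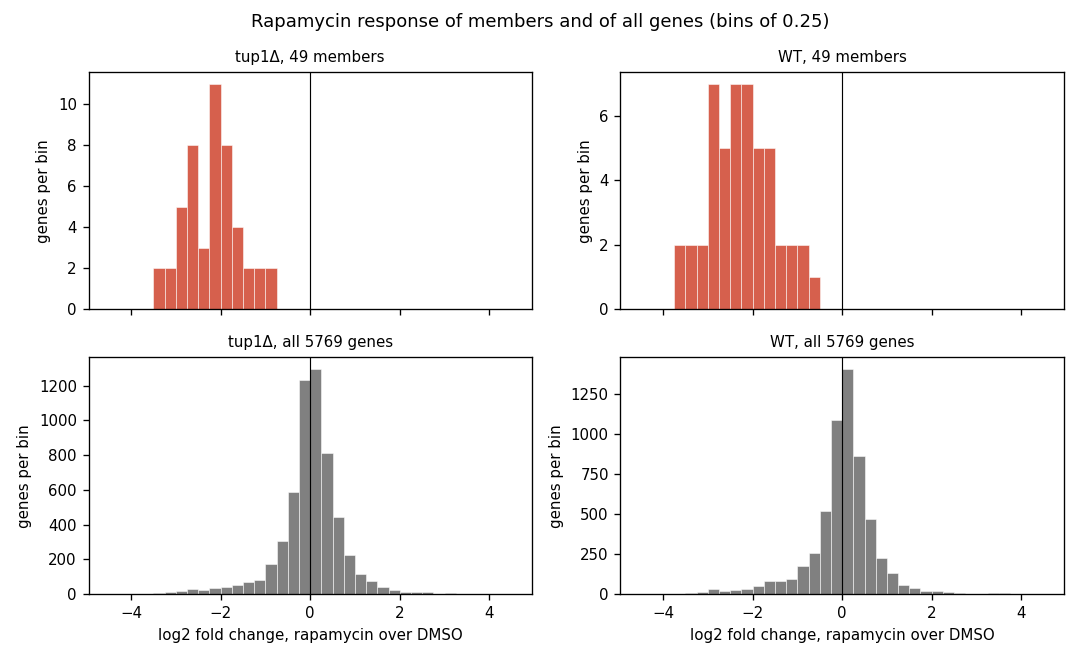
Number of genes by log2 fold change, rapamycin over DMSO, in bins of 0.25, for *tup1Δ* (left) and WT (right), with the 49 members in the upper panels and all 5769 genes in the lower panels. All members lie below 0 in both strains, with medians of -2.15 in *tup1Δ* and -2.27 in WT, while all genes center near 0.

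The fall was present in each culture. Within the 4 WT cultures, the median over members of rapamycin minus DMSO was -2.10, -2.12, -2.43 and -2.45 for cultures 1 to 4, and all 49 members were below 0 in each of them. At -1 or below were 46, 44, 47 and 47 members. The median log2 value of the members on an array was between 9.71 and 9.99 in WT in rapamycin, and between 12.36 and 12.52 in WT in DMSO, so that the groups were far apart on every array.

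The UTP-A complex, which meets the nascent pre-rRNA first, had 7 members, and 7 were lower in rapamycin in WT, and their median was -2.44 on the log2 scale. *UTP8* (YGR128C) had the largest fall. Its log2 values were 9.23, 9.19, 9.10 and 9.09 in rapamycin in WT, against 12.10, 12.02, 12.13 and 12.01 in DMSO in WT, a log2 fold change of -2.91 (standard error, SE, 0.05, limma-adjusted p = 1.15e-11). *UTP5* (YDR398W) had the smallest, with 10.96, 10.99, 10.83 and 10.84 in rapamycin in WT, against 12.77, 12.73, 12.84 and 12.74 in DMSO in WT, a log2 fold change of -1.86 (SE 0.05). Replicates of both genes lay within 0.2 of each other, far less than the change. The log2 fold changes of *NAN1*, *UTP4* and *UTP10* were -2.78, -2.63 and -2.44.

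UTP-B is built mainly of WD-repeat proteins and binds after UTP-A. All 6 of its members were lower, with a median of -2.75, the lowest among the role groups. *UTP21* (YLR409C) read 9.63, 9.80, 9.37 and 9.46 in rapamycin in WT, against 12.43, 12.59, 12.55 and 12.70 in DMSO in WT, a log2 fold change of -3.00 (SE 0.09). *PWP2*, whose protein is a core WD-repeat subunit, was close to it at -2.98, and *UTP18* (YJL069C) fell least. The log2 values of *UTP18* were 11.01, 10.88, 10.77 and 10.76 in rapamycin in WT, against 12.70, 12.71, 12.74 and 12.74 in DMSO in WT, a log2 fold change of -1.87 (SE 0.06).

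UTP-C joins UTP22 and RRP7 with the subunits of casein kinase 2, and RRP5 is a long RNA-binding protein that serves the assembly of both ribosomal subunits. This small group held the largest and one of the smallest changes among members. *RRP5* (YMR229C) had values of 9.27, 9.46, 9.48 and 9.29 in rapamycin in WT, against 12.86, 12.68, 13.05 and 13.03 in DMSO in WT. The log2 fold change was -3.53 (SE 0.11, limma-adjusted p = 4.03e-10), or 11.6-fold lower, and ranked 3 from the lowest among all genes. *RRP7* (YCL031C) had 11.26, 11.47, 11.24 and 11.03 in rapamycin in WT, against 12.19, 12.08, 12.11 and 12.03 in DMSO in WT, a log2 fold change of -0.85 (SE 0.09, limma-adjusted p = 6.66e-06). Its groups did not overlap, but the change was under the fold threshold. *UTP22*, the partner of RRP7, fell by 2.23 on the log2 scale.

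The MPP10 complex (*MPP10*, *IMP3* and *IMP4*) holds the U3 snoRNA to the pre-rRNA, and SAS10, LCP5 and BUD21 are further proteins of the particle. Of these 6 members 5 were lower, with a median of -1.80. *SAS10* (YDL153C) had the largest fall, with 9.29, 9.91, 9.72 and 9.64 in rapamycin in WT, against 11.56, 11.70, 12.71 and 12.59 in DMSO in WT. Its log2 fold change was -2.50, but with a SE of 0.24, since DMSO replicates 3 and 4 lay about 1 unit above replicates 1 and 2. *BUD21* (YOR078W) read 10.33, 10.38, 10.25 and 10.23 in rapamycin in WT, against 11.13, 10.96, 11.46 and 11.42 in DMSO in WT, a log2 fold change of -0.94 (SE 0.11, limma-adjusted p = 1.1e-05). It was not called, and it passed the fold threshold at -1.04 without WT DMSO replicate 2. The log2 fold changes of *IMP4*, *IMP3* and *MPP10* were -2.34, -2.01 and -1.58.

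Box C/D snoRNP proteins take part in the methylation of rRNA, and with RRP9 they are part of the U3 snoRNP. All 4 members were lower, with a median of -1.76. *NOP56* (YLR197W), which encodes a scaffold protein, had values of 11.82, 11.76, 11.24 and 11.19 in rapamycin in WT, against 13.77, 13.73, 13.67 and 13.80 in DMSO in WT, a log2 fold change of -2.24 (SE 0.13). In rapamycin its replicates 3 and 4 were lower than its replicates 1 and 2. *RRP9* (YPR137W), whose protein is specific to U3, had 12.04, 12.12, 11.92 and 11.93 in rapamycin in WT, against 13.14, 13.16, 13.30 and 13.29 in DMSO in WT, a log2 fold change of -1.22 (SE 0.07). *NOP58* was at -2.09, and *NOP1*, which encodes the methyltransferase fibrillarin, at -1.42.

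RNA helicases unwind the pre-rRNA and release the U3 snoRNA. This group of 6 had a median of -2.72 with 5 lower, and it held the smallest change of all members. *DHR2* (YKL078W), which encodes a DEAH-box helicase, read 9.06, 9.04, 8.80 and 8.84 in rapamycin in WT, against 12.42, 12.43, 12.50 and 12.46 in DMSO in WT, a log2 fold change of -3.52 (SE 0.07, limma-adjusted p = 1.15e-11). *ROK1*, a DEAD-box helicase gene, was at -3.29 and *ECM16*, which encodes the helicase that frees U3, at -2.78. *ESF2* was at -2.66 and *DBP8*, whose helicase has ESF2 as its cofactor, at -2.23. *ESF1* (YDR365C), which encodes a nucleolar protein needed for 18S rRNA, had 12.12, 12.60, 12.69 and 12.65 in rapamycin in WT, against 12.71, 12.77, 13.33 and 13.37 in DMSO in WT. The groups of *ESF1* were next to each other without overlap, and the log2 fold change of -0.53 (SE 0.17, limma-adjusted p = 0.017) was not called and ranked 851 from the lowest among all genes.

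BMS1 is a GTPase that brings RCL1 into the particle. *RCL1* (YOL010W) had 9.59, 9.59, 9.47 and 9.46 in rapamycin in WT, against 12.12, 12.12, 12.12 and 12.09 in DMSO in WT, a log2 fold change of -2.58 (SE 0.05). *BMS1* (YPL217C) had 11.12, 11.25, 11.36 and 11.39 in rapamycin in WT, against 12.71, 12.70, 13.08 and 13.42 in DMSO in WT, a log2 fold change of -1.70 (SE 0.14). The DMSO values of *BMS1* were spread more widely than those of *RCL1*.

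NOP14 and NOC4 bind each other, and EMG1 is a methyltransferase of the 18S rRNA. All 3 members were lower. *NOP14* (YDL148C) read 8.40, 8.44, 8.31 and 8.34 in rapamycin in WT, against 11.31, 11.31, 11.64 and 11.66 in DMSO in WT, a log2 fold change of -3.11 (SE 0.08). The rapamycin values of *NOP14* were near the lowest values on the arrays, and the measured fall may be too small. *EMG1* (YLR186W) had 11.11, 10.96, 10.97 and 11.02 in rapamycin in WT, against 12.81, 12.94, 12.92 and 13.07 in DMSO in WT, a log2 fold change of -1.92 (SE 0.06), and *NOC4* was at -2.11.

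Most of the genes grouped here as late 40S factors encode proteins that stay with the particle or join it as it becomes a pre-40S subunit. All 4 were lower, with a median of -2.36. *KRR1* (YCL059C), whose protein is later replaced by PNO1, had 9.16, 9.27, 8.77 and 8.74 in rapamycin in WT, against 11.81, 11.67, 11.99 and 11.95 in DMSO in WT, a log2 fold change of -2.87 (SE 0.12). *PNO1* (YOR145C) had 9.99, 9.68, 9.70 and 9.75 in rapamycin in WT, against 11.74, 11.75, 11.83 and 11.75 in DMSO in WT, a log2 fold change of -1.99 (SE 0.07). *DIM1*, which encodes the dimethylase of 18S rRNA, and *ENP1* were at -2.40 and -2.31.

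Of the other processome proteins, 8 of 8 were lower, with a median of -2.01. *ENP2* (YGR145W) read 9.36, 9.53, 9.15 and 9.18 in rapamycin in WT, against 12.51, 12.44, 12.79 and 12.79 in DMSO in WT, a log2 fold change of -3.33 (SE 0.10). *UTP7* (YER082C) read 12.19, 12.15, 12.21 and 12.19 in rapamycin in WT, against 13.36, 13.33, 13.55 and 13.49 in DMSO in WT, a log2 fold change of -1.25 (SE 0.08). The rapamycin values of *UTP7* were within 0.1 of each other. *UTP23* was at -2.77, *UTP14*, which encodes the activator of the ECM16 helicase, at -2.38 and *UTP20* at -2.30. *UTP11*, *UTP30* and *SOF1* were at -1.72, -1.57 and -1.52.

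**Figure D2:**
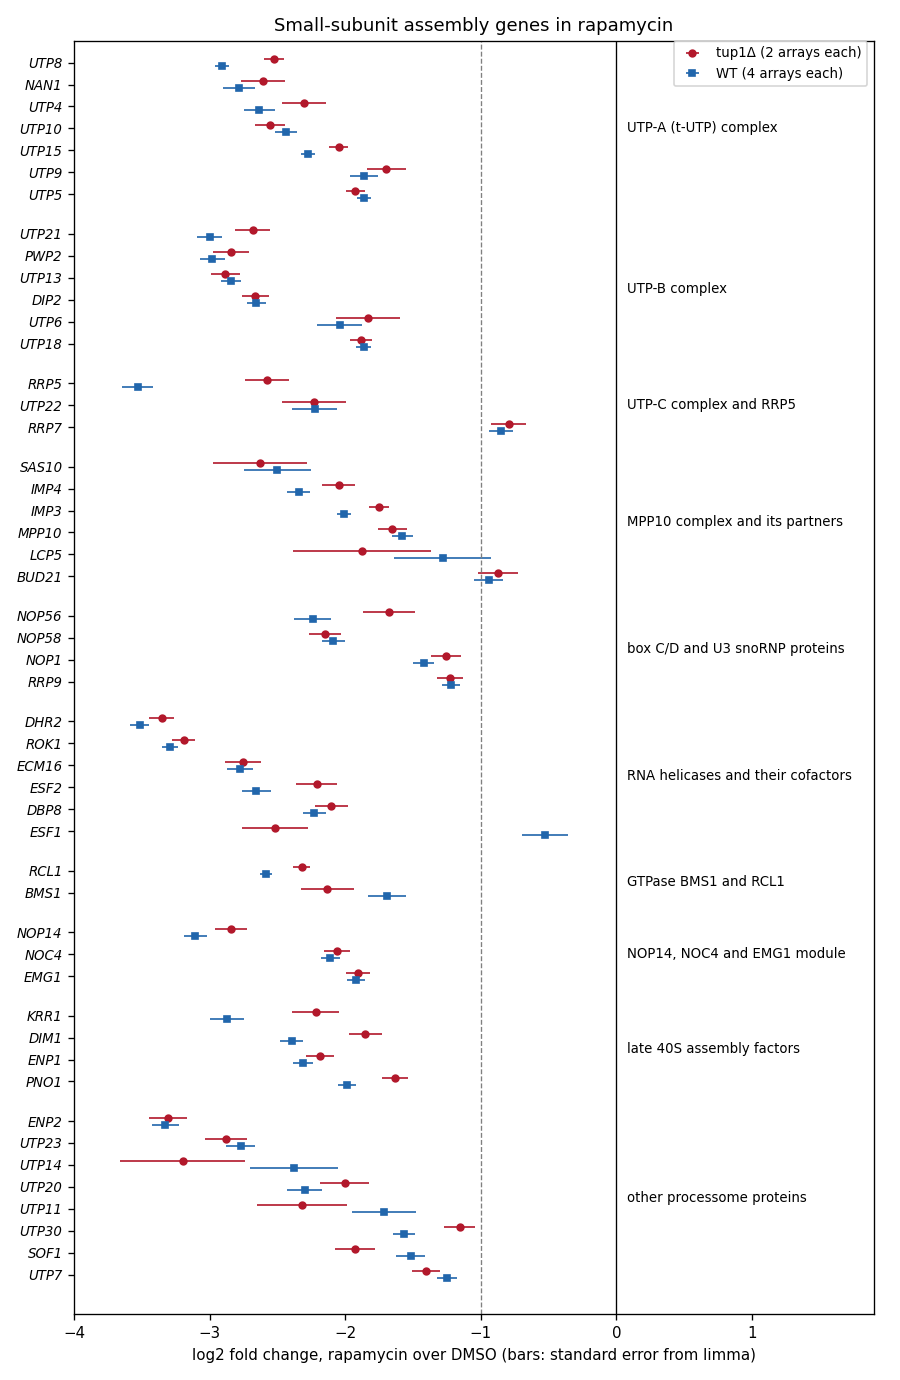
Log2 fold change of each member, rapamycin over DMSO, in *tup1Δ* (red circles) and WT (blue squares), with the standard error from limma as bars and the fold threshold as a dashed line, arranged by role. Members of every role group lie left of the threshold, with *RRP7* and *BUD21* to its right in both strains and *ESF1* at -2.52 in *tup1Δ* and -0.53 in WT.

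The low end of the array may limit the falls of the dimmest members, which was not tested. The mean log2 value was under 9 for 10 members in *tup1Δ* in rapamycin and for 9 members in WT in rapamycin, near the level that *TUP1* had in its own deletion strain. In WT in rapamycin the lowest mean was that of *UTP9*, 8.32, while *RRP5*, with the largest fall, averaged 9.38. No flag for detection was used here, so the falls of such members may be larger than measured.

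The fall in rapamycin was also present without *TUP1*. In *tup1Δ*, 47 of 49 members were lower and 0 were higher, where 6.52% of all genes were lower and 5.34% higher, and the median log2 fold change was -2.15, or 4.43-fold lower, against 0.03 over all genes. With the adjusted p alone, 49 members were lower, where 23.5% of all genes were. In all 49 members both rapamycin values lay below both DMSO values, which held for 38.3% of all genes. The members ran from *DHR2*, with 8.64 and 8.74 in rapamycin in *tup1Δ*, against 11.97 and 12.12 in DMSO in *tup1Δ* (log2 fold change -3.36, SE 0.09), to *RRP7*, with 10.91 and 11.17 in rapamycin in *tup1Δ*, against 11.88 and 11.79 in DMSO in *tup1Δ* (log2 fold change -0.80, SE 0.13). *BUD21*, at -0.87, was the other member not called. Of the 100 genes with the largest falls, which are 1.73% of all genes, 22 were members. Among role groups the medians in *tup1Δ* ran from -2.67 for UTP-B to -1.47 for the box C/D and U3 proteins, the same groups that stood at the ends in WT.

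The strains were then compared in the size of their response, as the log2 fold change in *tup1Δ* minus that in WT. One member, *ESF1*, was called and fell more in *tup1Δ*, where 0.381% of all genes tested were called lower. The median difference of the members was 0.10, and 31 were above 0 and 18 below. At an unadjusted p under 0.05 there were 13 members from limma, where 19.7% of all genes were, and 3 passed the adjusted p alone, where 5.77% of all genes did.

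*ESF1* had log2 values of 10.21 and 10.25 in rapamycin in *tup1Δ*, against 12.81 and 12.69 in DMSO in *tup1Δ*, a log2 fold change of -2.52 (SE 0.24, limma-adjusted p = 5.84e-06). The difference from the WT change of -0.53 was -1.99 (SE 0.29, limma-adjusted p = 0.00213), and it lay between -2.14 and -1.84 and was called in all 22 alternative analyses. Its rapamycin values in *tup1Δ* were about 2 units below the lowest WT value of 12.12, while its DMSO values in *tup1Δ* lay close to those of WT replicates 1 and 2. In rank among all genes, *ESF1* was 66 from the lowest in *tup1Δ* and 851 in WT. The measured genes on either side of it had other values. *CDC40*, on the same strand, had a difference of 0.37 between the strains, and YDR365W-B, on the opposite strand and part of a Ty element with near-identical copies, had -0.08.

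*RRP5* moved the other way. It had 10.44 and 9.94 in rapamycin in *tup1Δ*, against 12.76 and 12.78 in DMSO in *tup1Δ*, a log2 fold change of -2.58 (SE 0.16), or 5.97-fold lower. The difference from WT was 0.95 (SE 0.19, limma-adjusted p = 0.0149), just under the fold threshold, with an adjusted p between 0.00158 and 0.0776 over the alternatives. The 2 rapamycin arrays of *tup1Δ* differed by 0.50, and the difference from WT lay between 0.70 and 1.20 over the 22 alternatives. It was called in 4 of these, including the setting with no fold threshold. It was 1.20 without *tup1Δ* rapamycin replicate 2 and 1.03 without WT DMSO replicate 2, which would be called. *UTP8* had 9.14 and 9.22 in rapamycin in *tup1Δ*, against 11.65 and 11.77 in DMSO in *tup1Δ*. Its difference of 0.38 (SE 0.09, limma-adjusted p = 0.0322) was small, and the adjusted p lay between 0.00345 and 0.186 over the alternatives. The 4 late 40S factors had differences from 0.13 to 0.65, with *KRR1* at 0.65 (limma-adjusted p = 0.114) and *DIM1* at 0.54 (limma-adjusted p = 0.0624), and none of them was called.

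**Figure D3:**
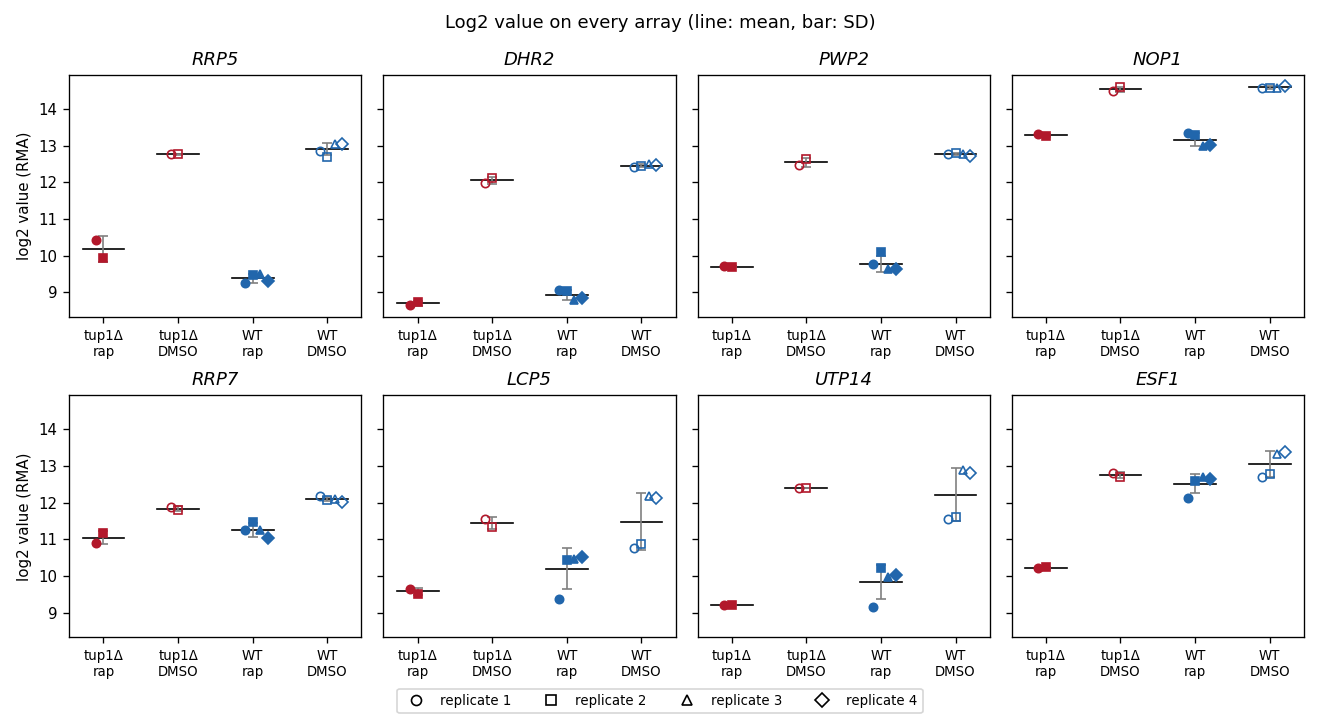
RMA-normalized log2 value of 8 members on each array, by group (*tup1Δ* in red, WT in blue; filled for rapamycin, open for DMSO), with the marker giving the replicate number, the line the mean and the bar the SD. *ESF1* reads 10.21 and 10.25 in rapamycin in *tup1Δ* and at least 12.12 elsewhere, while *LCP5* and *UTP14* separate WT DMSO replicates 3 and 4 from 1 and 2.

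Without rapamycin, small strain differences were measured, mostly below 0 in *tup1Δ* relative to WT. No member was called in DMSO, where 0.451% of all genes were called lower. From limma there were 25 members at an unadjusted p under 0.05, a share near the 49.8% of all genes. With the adjusted p alone, 22 members were lower and 0 were higher, where 27.3% of all genes were lower and 15.3% were higher. The median log2 fold change was -0.26, against -0.08 over all genes, and 44 of 49 members were below 0, as were 3558 of 5769 genes. For 29 members both *tup1Δ* values lay below all 4 WT values, and for 0 members above them, where 40.4% of all genes lay below and 22.7% above. After the log2 fold changes were shifted so that the median gene stood at 0, 16 members were lower by the adjusted p alone, where 18.2% of all genes were.

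The largest of these strain differences in DMSO were still under the fold threshold. *UTP30* (YKR060W), which encodes a protein related to a ribosomal protein, had 9.99 and 10.22 in *tup1Δ*, against 10.76, 10.74, 10.66 and 10.83 in WT, a log2 fold change of -0.64 (SE 0.10, limma-adjusted p = 0.000459). *IMP4* (YNL075W) had 10.85 and 11.05 in *tup1Δ*, against 11.67, 11.52, 11.52 and 11.59 in WT, a log2 fold change of -0.62 (SE 0.10, limma-adjusted p = 0.000747). *PNO1* was at -0.54, *UTP4* at -0.53 and *DBP8* at -0.50, and in each of these 5 genes the strains did not overlap. Among role groups the helicases had the lowest median, -0.41, and the NOP14, NOC4 and EMG1 module the highest, -0.05.

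In rapamycin, 1 member was called lower in *tup1Δ* than in WT, again *ESF1*, at -2.29 (SE 0.21, limma-adjusted p = 6.64e-06), where 0.867% of all genes were called lower. With the adjusted p alone, 16 members were lower, where 27.5% of all genes were, and 3 were higher, where 16.2% were. The 3 higher members were *RRP5*, at 0.81 (SE 0.14, limma-adjusted p = 0.000825), *KRR1*, at 0.47, and *DIM1*, at 0.32. The median was -0.19, against -0.09 over all genes. For 21 members both *tup1Δ* values lay below all 4 WT values, where 38.0% of all genes did, and for 3 members above, where 21.4% did. After the shift to the median gene, 8 members were lower by the adjusted p alone, at the share of all genes, 16.3%, and 3 were higher, where 21.6% of all genes were. These strain comparisons share their arrays with the rapamycin comparisons and are not independent of them.

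With 4 arrays against 4, the smallest p of a two-sided exact permutation test is 0.0286, and *RRP5*, *DHR2*, *ESF1*, *NOP1* and *RRP7* each reached it for rapamycin with DMSO in WT. With 2 arrays against 4 it is 0.0667 and with 2 against 2 it is 0.333, so that an exact test cannot pass the threshold in any comparison with *tup1Δ*. The comparisons with *tup1Δ* therefore rest on the spread that limma shares over groups and genes. The exact test took the arrays as unpaired, although WT arrays with the same replicate number share a culture. A test within the 4 WT cultures has fewer arrangements, so its smallest p is larger, and it was not run.

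Members differed in how they varied among WT arrays. In DMSO the SD over members of the differences between 2 arrays was 0.0852 for replicates 1 and 2, 0.0903 for replicates 3 and 4, and between 0.346 and 0.364 across the pairs. Over all genes the SD was 0.110 for replicates 1 and 2 and 0.0647 for replicates 3 and 4. Across the pairs it was between 0.258 and 0.287. In DMSO, 7 members were at least 0.5 higher in replicates 3 and 4 than in replicates 1 and 2, where 4.59% of all genes were, and 0 were at least 0.5 lower, where 1.58% of all genes were. *LCP5* (YER127W), whose protein is bound in the processome, had 10.75, 10.86, 12.18 and 12.12 in WT in DMSO. *UTP14* (YML093W) had 11.56, 11.61, 12.88 and 12.82 there. In both, the 2 pairs were over 1 unit apart, with almost no difference within a pair. The other members of this kind were *SAS10*, with a gap of 1.02, *UTP11*, with 0.95, *UTP6*, with 0.75, *ESF1*, with 0.61, and *BMS1*, with 0.54.

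In rapamycin, WT replicates 3 and 4 were again close, with an SD over members of 0.0673, while the SD was 0.285 between replicates 1 and 2 and between 0.194 and 0.335 across the pairs. One member, *LCP5*, was at least 0.5 higher in replicates 3 and 4, where 2.41% of all genes were. The 3 members *UTP22*, *NOP56* and *UTP20* were at least 0.5 lower there, where 1.89% of all genes were. *LCP5* had 9.36, 10.44, 10.46 and 10.52 and *UTP14* had 9.15, 10.22, 9.97 and 10.02 in WT in rapamycin, so that replicate 1 lay below the others. The log2 fold change of *LCP5* in WT was -1.28 (SE 0.36, limma-adjusted p = 0.00818), and with only WT replicates 1 and 2 it was -0.91 and not called. The change in *UTP14* in WT lay between -2.85 and -1.90 and was called in all 23 alternative analyses. In *tup1Δ*, *LCP5* had 9.64 and 9.51 in rapamycin, against 11.57 and 11.34 in DMSO, and *UTP14* had 9.20 and 9.20 in rapamycin, against 12.40 and 12.40 in DMSO. *ESF1*, the member called between the strains, belongs to the genes with the split. Against only WT replicates 1 and 2 its difference between the strains was -2.14, and against only replicates 3 and 4 it was -1.84. The part of this split in the other results was not tested beyond such fits.

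**Figure D4:**
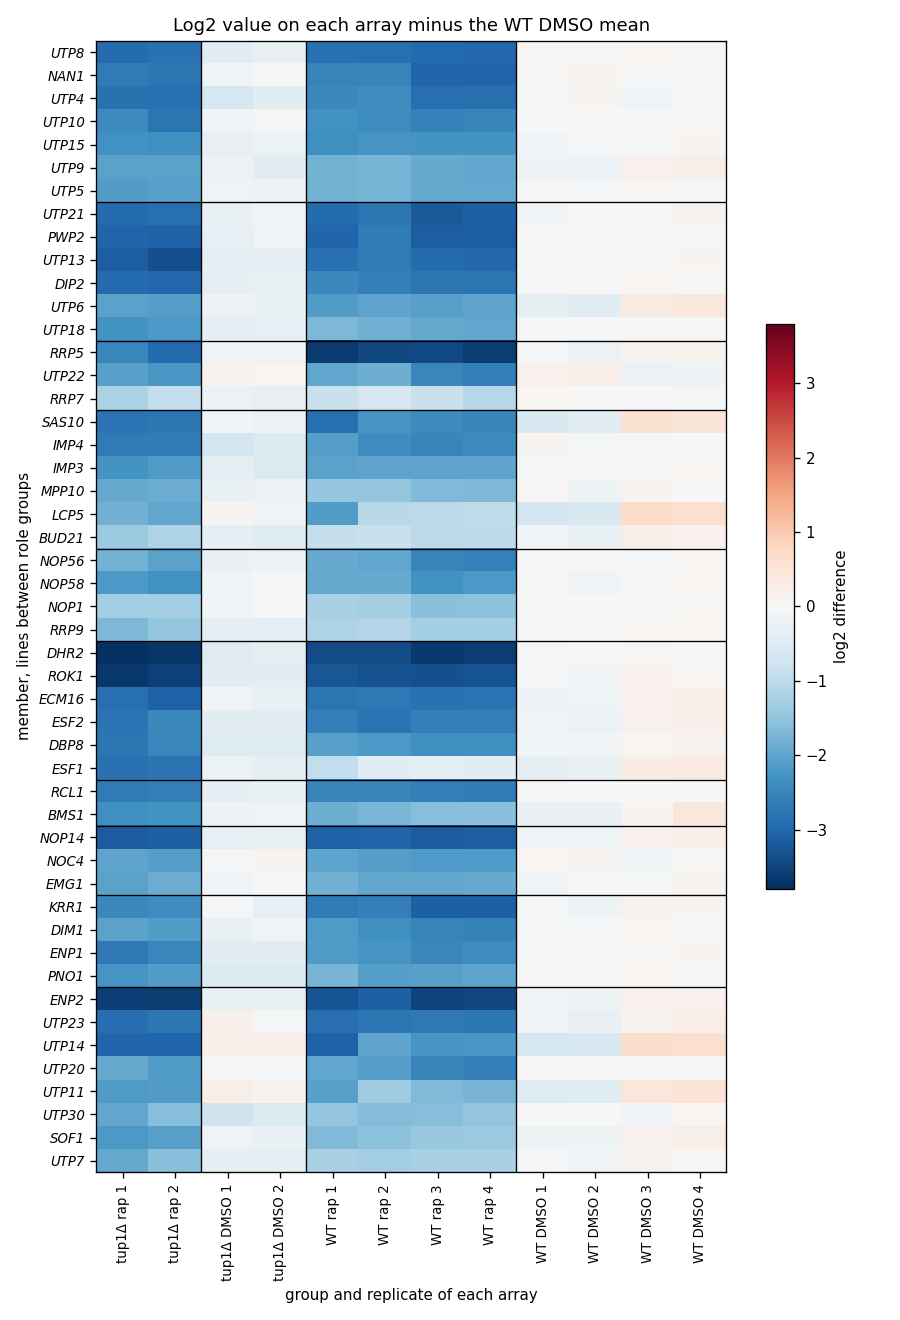
Log2 value of each member (rows, with lines between role groups) on each of the 12 arrays (columns), minus the mean of that member in WT in DMSO. The rapamycin arrays of both strains are blue for nearly all members. *ESF1* is pale blue in WT in rapamycin, and *LCP5*, *UTP14*, *SAS10* and *UTP11* are pale red in WT DMSO replicates 3 and 4.

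Other genes of ribosome synthesis were set beside the members. In rapamycin in WT, 7.8% of all genes were lower and 5.41% higher. Of 34 further genes of small-subunit assembly, 28 were lower in rapamycin in WT and 0 were higher, with a median of -1.73. The lowest were *KRE33* (-3.18), the rRNA acetyltransferase gene, and *MRD1* (-3.13). The highest were *HRR25* (0.11), a casein kinase 1 gene with other roles in the cell, and *SQS1* (0.24), and neither was called. The 4 subunits of casein kinase 2, which form UTP-C with UTP22 and RRP7, were not lower by the same rule. From *CKA1* at -0.32 to *CKA2* at 0.20, none was called, and the median was 0.05. All 4 H/ACA snoRNP genes were lower (median 4.01-fold lower, *NHP2* lowest at -2.35), as were 8 of 8 genes for RNA polymerase I subunits and its factor RRN3 (median -2.62, *RPA43* lowest at -3.52).

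Assembly genes of the large, 60S, subunit fell as well. In rapamycin in WT, 59 of 63 of its assembly genes were lower, with a median of -2.58, from *ARX1* and *DRS1*, both at -3.45, to *SSF2* (-0.53) and *JJJ1* (-0.52). In *tup1Δ*, 57 of them were lower, with a median of -2.43. Also lower there were 27 of the 34 further small-subunit genes, 4 of 4 H/ACA genes and 7 of 8 of the polymerase I list. Of the casein kinase 2 genes, 0 of 4 were lower. Of all genes, 7.8% were lower in WT and 6.52% in *tup1Δ*. The 100 largest falls, 1.73% of all genes, held 34 of the 63 60S genes in WT and 40 in *tup1Δ*. They held 24 and 22 of the 49 members. Of 8 transcription regulators of ribosome assembly genes, 1 was called in WT. This was *TOD6*, which encodes a repressor of these genes, at -2.80 (limma-adjusted p = 1.04e-10). *IFH1*, a co-activator gene of ribosomal protein genes, was at -0.97 and *STB3*, another repressor gene, at 0.21.

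Most genes next to the members on the chromosome were not lower. The nearest measured gene on either side gave 98 neighbors, of which 0 were members. In rapamycin in WT, 13 of them, 13.3%, were lower, beside the 7.8% of all genes, and 4 were higher, and their median log2 fold change was 0.01. Of the 13, 6 were 60S assembly genes, among them *RIX1* beside *UTP9* (-3.06) and *NOG2* beside *ESF2* (-3.07). Of 20 neighbors that lie head to head with a member and may share its upstream region, 3 were lower. These were *RPC53* beside *SAS10* (-1.86), *NSA2* beside *LCP5* (-1.67) and *RPS10B* beside *RRP5* (-1.16). *RPC53* encodes a subunit of RNA polymerase III and *RPS10B* a protein of the 40S subunit. In contrast, *YSP3*, next to *UTP23*, was 2.45 higher on the log2 scale.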

How the data were processed

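Expression was measured on 12 one-color arrays. The authors quantified the spots with NimbleScan (version not given in the sources used here), ran RMA over these and further arrays from the laboratory, and deposited one log2 value per gene and array. Labels and methods differ on the SDS concentration of the extraction and on who labeled the cDNA. Of 5872 entries, 103 had no value on any array and were left out. Symbols came from a RefSeq table (5763 of 5769 genes matched).

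Values were fitted in R 4.3.3 with limma 3.58.1 (lmFit, eBayes), 1 mean for each of 4 groups, with 8 residual and 2.8 prior degrees of freedom, and Benjamini-Hochberg adjustment over all genes. On simulated data for 5769 genes with 200 changed by a log2 fold change of 2, 100% were recovered for rapamycin in WT, and 98.5% for the strain difference in that response. The simulated arrays were independent of each other, so this check covers neither shared cultures nor changes smaller than 2. Exact tests used scipy 1.17.1. WT arrays with one number share a culture by the design text, and their deviations correlated at 0.745, 0.119, 0.531 and 0.535 (0.0637 in *tup1Δ*).

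Members, role groups and lists were chosen with earlier results of these data known. Named in full are the lowest and highest member of each role group for rapamycin in WT, members called between strains, members not called, and *RRP5*, *DHR2* and *ESF1*. Of other lists, up to 2 lowest and 2 highest are named. The other members named, and all neighbors named, were picked after their values were seen. Other settings were another normalization, filter, prior, threshold, sample set or replicate block, and each array left out in turn. Promoter motifs were not analysed here.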

Additional observations from a re-analysis of the deposited data

Results flagged for a closer look

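In groups of 4 arrays, 98 sets of member values were examined for 1 array far from the other 3, and 5 were found, where chance gives about 1 in 20, or 4.9. The gap to the nearest other array was 0.93 of the whole range for *LCP5* in WT rapamycin replicate 1 (9.36, against 10.44 to 10.52 on the others), 0.86 for *ESF2* in WT rapamycin replicate 2 (8.92, against 9.12 to 9.15), and 0.85 for *ESF1* in WT rapamycin replicate 1 (12.12, against 12.60 to 12.69). It was 0.88 for *RCL1* in WT DMSO replicate 4 (12.09, against 12.12) and 0.86 for *PNO1* in WT DMSO replicate 3 (11.83, against 11.74 to 11.75), where the arrays differed by under 0.1.

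For 3 members the rapamycin response differed between *tup1Δ* and WT by the test of the difference itself, at an adjusted p under 0.05 from limma. The same held for 5.77% of all genes. The response in *tup1Δ* less the response in WT was -1.99 for *ESF1*, 0.95 for *RRP5* and 0.38 for *UTP8*, and that of *ESF1* alone was past the fold threshold.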

How the results depend on the processing

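The count of members called lower in rapamycin kept within 1.5 times its value in all alternatives, and no result turned its direction past the threshold. The median in WT was -2.07 with only WT replicates 1 and 2 and -2.45 with only replicates 3 and 4. With no fold threshold, 2 members were higher in the strain difference, as were 201 of 5769 genes. In *tup1Δ* in DMSO, 22 members were lower (27.3% of all genes). In *tup1Δ* in rapamycin, 16 members were lower (27.5% of all genes) and 3 higher (16.2%). With a shift to the median gene and no fold threshold, which was added once the data had been seen, 16 were lower in DMSO (18.2% of all genes), and 8 were lower (16.3% of all genes) and 3 higher (21.6%) in rapamycin. Members called higher in the strain difference were 1, *RRP5*, with only WT replicates 3 and 4, and 0 to 1 with 1 array left out. Between strains in rapamycin they were also 0 to 1, with *RRP5* at 1.06 without *tup1Δ* rapamycin replicate 2. With the replicate block, 46 members were lower in WT and 47 in *tup1Δ*, and no call changed. Of 5551 values for single members, 5349 kept their direction and their call, whatever their size. A further 137 changed direction with no call in either fit, 53 gained a call and 12 lost one. *UTP30* in *tup1Δ* was -0.99 and not called without *tup1Δ* rapamycin replicate 1, and *LCP5* in *tup1Δ* had an adjusted p from limma of 0.0542 without *tup1Δ* DMSO replicate 1 and 0.0507 without *tup1Δ* rapamycin replicate 2 (5.42e-09 to 0.0542 over its alternatives). Without the dimmest 25% of genes, 42 members were left. The low end of the arrays may bound the falls of the dimmest members, which was not tested.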
